A study of Mus musculus with 6 samples.

Results

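The oocyte transcription factor network examined here consists of 9 genes, Sohlh1, Sohlh2, Lhx8, Figla, Nobox, Foxo3, Foxr1, Bnc1 and Taf4b, out of 19057 singly named genes on the array. Every probe whose platform gene symbol is one of these names was taken, which gave 14 probes of 45281. Total RNA of newborn mouse ovary was hybridised to Illumina MouseWG-6 BeadChips, with 2 wildtype arrays (numbered 2 and 3 in the titles) and 4 arrays of Sohlh1/Sohlh2 double knockout (1, 2, 3 and 5). Both genotypes are labelled with the mixed strain C57BL/6/129S6/SvEv and the same age and tissue, and no treatment is given. The labels give neither the alleles nor the number of animals behind a sample, so the spread behind the p-values is that between these samples and may be technical. All 6 arrays lay on 1 slide and detected 20124 to 20594 probes each, and their number limits the precision of every value.

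The genes encode regulators that act around the time when germ cells of the ovary become oocytes enclosed in primordial follicles. Sohlh1 and Sohlh2 are basic helix-loop-helix factors of the germ line that bind short DNA motifs called E-boxes, and they are known to act upstream of Lhx8, a LIM-homeobox factor. Figla, another basic helix-loop-helix factor, switches on the zona pellucida genes, and Nobox is a homeobox factor of early oocytes. Foxo3, a forkhead factor, holds primordial follicles at rest, Foxr1 is a forkhead gene of the germ line, Bnc1 encodes the zinc finger protein basonuclin, and Taf4b encodes a gonad-enriched subunit of the general transcription factor TFIID.

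Most tested probes of the network were lower in the double knockout. Of 14 probes, 8 were detected on enough arrays to be tested (detection p under 0.05 on at least 2 of 6 arrays), and 7 of these fell, at an adjusted p under 0.05 in limma's moderated test with Benjamini-Hochberg adjustment over all 21981 tested probes. Among all tested probes 3.62% were called lower in this comparison and 3.65% higher. The 7 probes stand for 6 genes (Sohlh1, Lhx8, Figla, Foxo3, Foxr1 and Bnc1) of 7 tested, against 3.58% of 12163 genes called lower by their brightest tested probe. The genes' median log2 fold change was -1.42, and that of all tested genes 0.03. Sohlh1, with 2 of the 7 probes, is itself a targeted gene, so its fall is not a separate finding about the network. The members were chosen with earlier results of these data known, so these counts are a description. Foxr1 passed the detection filter only through the wildtype arrays, where it was high, since 1 double-knockout array alone detected it. A probe admitted in this way is favoured to come out lower, which limits what its call adds to these counts. On the normalized scale the double-knockout arrays lay below both wildtype arrays in these same 7 probes, as they did in 17.0% of all tested probes. Nobox was detected on all 6 arrays and did not pass, and Sohlh2 and Taf4b were too dim to be tested. In a whole ovary, fewer oocytes and less RNA per oocyte cannot be told apart.

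**Figure D1:**
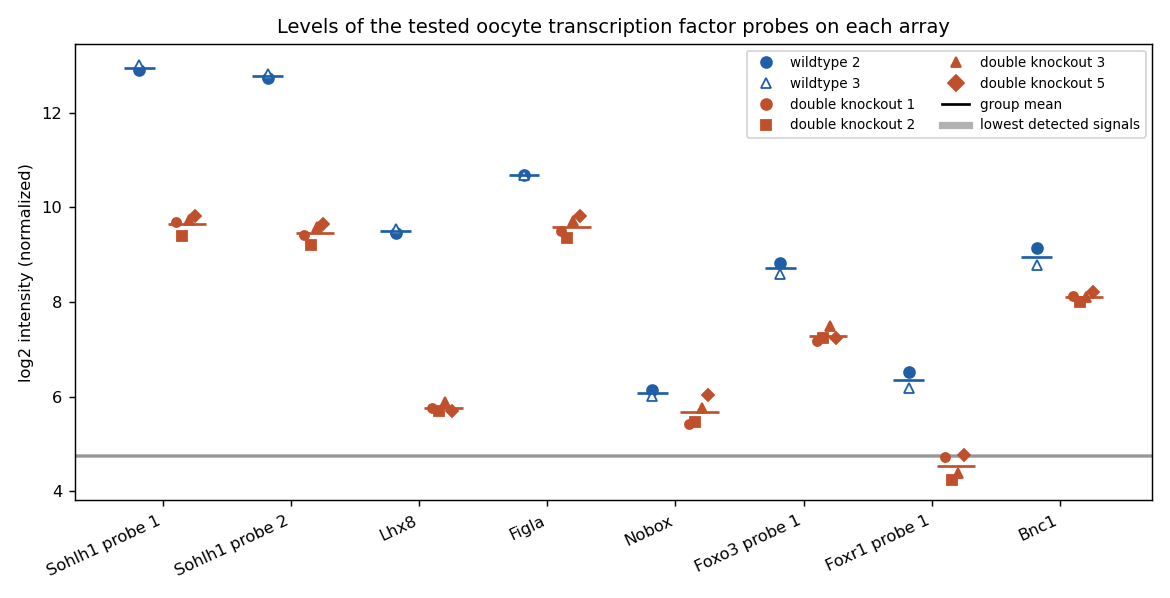
Normalized log2 intensity (vertical axis) of the 8 tested probes on the 2 wildtype arrays (blue) and 4 double-knockout arrays (orange), with group means as short lines and the lowest detected signals of the arrays (4.72 to 4.76) as a grey band. The groups are apart in 7 probes and overlap in Nobox, and the Foxr1 points of the double knockout lie at or below the grey band.

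The wildtype arrays carry the precision of these calls. Without wildtype array 2, 5 of 8 member probes were called lower beside 111 probes (0.519%) of all those then tested. Without wildtype array 3, 6 of 8 were called lower beside 230 probes (1.08%). Leaving out any single double-knockout array kept the count at 7. With 2 and 4 arrays the smallest two-sided p an exact permutation test allows is 0.0667, and the calls therefore depend on limma's pooling of the spread over probes.

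The sequences just upstream of 4 of the genes are shown because the targeted factors bind E-boxes, written CANNTG, where N is any base. Each is the 250 bases before the annotated transcript start in RefSeq's GRCm38.p6 table, 5′ to 3′ on the gene's own strand, with every E-box in capitals. Sohlh1 and Lhx8 are the genes with the largest falls, Figla fell less, and Nobox did not pass the test.
Sohlh1, chr2:25847249-25847498, strand -: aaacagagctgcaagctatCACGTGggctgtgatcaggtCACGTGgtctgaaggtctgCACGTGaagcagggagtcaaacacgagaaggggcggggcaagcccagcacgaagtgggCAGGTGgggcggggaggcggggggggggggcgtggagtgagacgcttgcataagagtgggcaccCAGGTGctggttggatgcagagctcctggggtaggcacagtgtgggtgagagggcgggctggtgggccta
Lhx8, chr3:154330561-154330810, strand -: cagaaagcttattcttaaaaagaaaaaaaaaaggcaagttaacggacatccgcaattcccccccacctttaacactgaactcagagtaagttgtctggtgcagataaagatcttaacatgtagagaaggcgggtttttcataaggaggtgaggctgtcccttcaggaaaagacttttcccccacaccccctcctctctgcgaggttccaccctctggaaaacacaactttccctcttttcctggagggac
Figla, chr6:86016941-86017190, strand +: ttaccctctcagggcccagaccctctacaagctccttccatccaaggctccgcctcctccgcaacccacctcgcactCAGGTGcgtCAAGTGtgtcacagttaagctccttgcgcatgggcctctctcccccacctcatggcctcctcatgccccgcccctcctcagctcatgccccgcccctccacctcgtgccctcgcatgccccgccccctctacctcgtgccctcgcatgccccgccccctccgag
Nobox, chr6:43309555-43309804, strand -: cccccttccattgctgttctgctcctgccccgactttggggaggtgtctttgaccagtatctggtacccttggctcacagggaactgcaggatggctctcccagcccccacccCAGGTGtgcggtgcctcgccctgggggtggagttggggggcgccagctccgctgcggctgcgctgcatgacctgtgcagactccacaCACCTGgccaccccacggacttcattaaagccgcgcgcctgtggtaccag

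The upstream windows differed in their E-boxes, and a link between their number and the size of the fall was not tested. Sohlh1 is itself a targeted gene, so its fall cannot be set against its E-boxes. For each gene the first start listed was used, and E-boxes farther off or at other starts were not searched. In windows of 300 bases (250 before and 50 after the start), Sohlh1 held 5 E-boxes, and 2.1% of the 32851 windows in the table hold at least that many. Of these, 3 were CACGTG, beginning 231, 211 and 192 bases before the start. Only 0.09% of windows hold 3 or more, and 7.2% hold at least 1. Figla held 4 E-boxes, 3 of them CAGGTG or CACCTG, a number that 0.37% of windows reach. Nobox and Foxr1 held 2 each, a number reached by 39.64% of windows, and Sohlh2 held 1. Lhx8, Foxo3 and Bnc1 held none, while 72.3% of all windows hold at least 1. CANNTG reads the same on both strands, so each match counts once, and the named forms are special cases of it. A match is a description of letters and not a bound site, and base composition also differed, from 47.0% G and C in the Lhx8 window to 83.3% in that of Bnc1, with a median of 52.7% over all windows. None of the 8 windows held TAATTG or CAATTA (a homeodomain motif, in 8.0% of all windows), TAATTA (5.3%), GTAAACA or TGTTTAC (a forkhead motif, 3.6%), or TATAAA or TTTATA (13.6%).

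**Figure D2:**
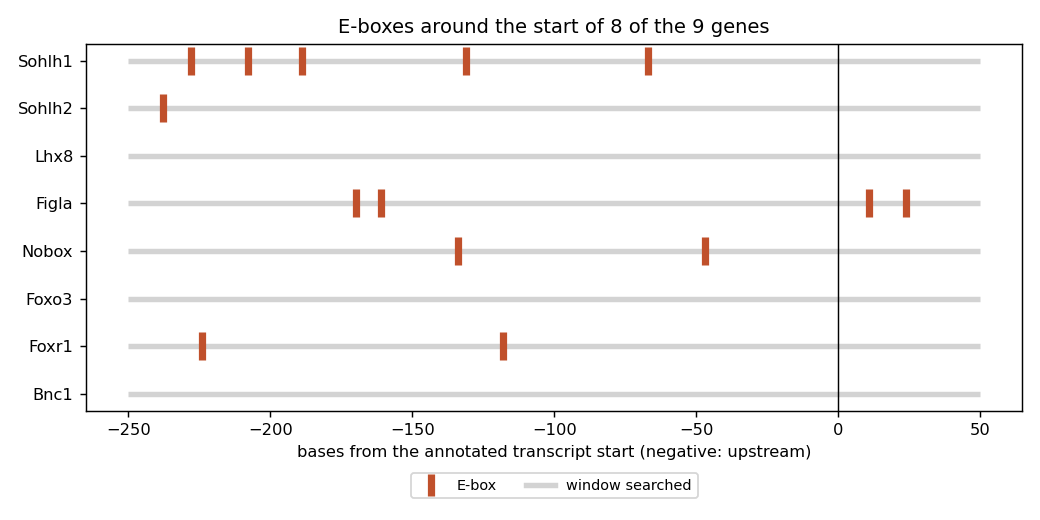
Positions of E-boxes (orange ticks) in the window of 250 bases before and 50 bases after the annotated start of 8 of the 9 genes, with distance from the start in bases on the horizontal axis. Sohlh1 has 5, Figla 4 of which 2 lie after the start, Nobox and Foxr1 2 each, Sohlh2 1, and Lhx8, Foxo3 and Bnc1 none.

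Sohlh1, 1 of the 2 targeted genes, was about 10-fold lower in the double knockout but not at background. Its brighter probe read 8932.3 and 8467 raw intensity units on wildtype arrays 2 and 3, and 701, 713.1, 897.5 and 890.3 on double-knockout arrays 1, 2, 3 and 5. All 4 double-knockout values lay far below both wildtype values and far above the array medians of 59.3 to 61.1. On the normalized log2 scale the level was 12.95 ± 0.09 (SD, n = 2) in wildtype and 9.66 ± 0.18 (SD, n = 4) in the double knockout, a difference of -3.29 ± 0.16 (SE, 95% confidence interval -3.65 to -2.94, adjusted p = 3.41e-05 in limma). The second probe gave 8099.7 and 7443.3 units in wildtype and 593.6 to 805.1 in the double knockout, a log2 fold change of -3.32 ± 0.16. Both probes thus fell by the same amount within their errors, and both were detected on all 6 arrays. The positions of the probes within the gene were not used here, and a probe that lies outside the deleted part would not check the genotype.

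The probe for Sohlh2, the other targeted gene, was near background in both genotypes. It read 76.4 and 60.2 units on wildtype arrays 2 and 3, with detection p-values of 0.00214 and 0.115. The double-knockout arrays read 58.2, 62.6, 56.2 and 50.5 units, with detection p-values between 0.0588 and 0.595. Wildtype array 2 was thus the single array that detected it, and wildtype array 3 lay within the range of the double knockout. The probe was left out by the detection filter. Fitted without that filter it gave a log2 fold change of -0.35 with an interval of -0.79 to 0.09 (adjusted p = 0.454 in limma), so this probe does not tell the genotypes apart.

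Lhx8, the LIM-homeobox factor, had the strongest change of the network with the processing used here. It read 867.1 and 812.6 raw units in wildtype and 85.9, 87.9, 94.6 and 87.2 in the double knockout. The double-knockout arrays sat close together, above the array medians and detected on all 4 arrays. The log2 level was 9.5 ± 0.07 (SD, n = 2) in wildtype and 5.76 ± 0.09 (SD, n = 4) in the double knockout. The log2 fold change was -3.74 ± 0.14 (SE, interval -4.04 to -3.43), which is 13.3-fold lower, with adjusted p = 1.23e-05 in limma. Among 21981 tested probes this was the smallest p and the 4th lowest change. It stayed the smallest p under 10 of 15 alternative analyses and was never beyond rank 4. The size depends on how background is treated, since the log2 fold change was -3.05 without background correction and -3.03 in the authors' normalized values. Sohlh1 then fell more than Lhx8. Its 2 probes gave -3.24 and -3.26 without background correction, and -3.18 and -3.21 in the authors' values.

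Figla fell by a smaller amount from a high signal. It read 1980.4 and 1762.8 raw units in wildtype and 619.8, 691.3, 881.7 and 895.7 in the double knockout. The groups did not overlap, and all arrays detected the probe. Log2 levels were 10.69 ± 0.01 (SD, n = 2) and 9.59 ± 0.21 (SD, n = 4), a log2 fold change of -1.09 ± 0.17 (SE, interval -1.47 to -0.72), or 2.13-fold lower (adjusted p = 0.00662 in limma). The call ended without wildtype array 2 (adjusted p = 0.0819) and without wildtype array 3 (0.0611), with changes of -1.10 and -1.09.

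Nobox was dim, and its groups overlapped on the normalized scale but not in raw signal. It read 118.4 and 105.8 raw units in wildtype and 76.2, 80.8, 89.6 and 100.1 in the double knockout. On the normalized scale double-knockout array 5, at 6.03, reached wildtype array 3, at 6.01, and the other double-knockout arrays lay lower. The log2 fold change was -0.40 ± 0.19 (SE, n = 2 and 4) with an interval of -0.84 to 0.03 (adjusted p = 0.235 in limma). The interval leaves room for a fall of up to 1.78-fold and for a small rise, and it lies apart from those of Sohlh1, Lhx8, Foxo3 and Foxr1.

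Foxo3 had 3 probes, of which 1 carried signal. That probe read 567 and 440.9 raw units in wildtype and 159.2, 187.5, 213.2 and 182.9 in the double knockout. Its log2 level fell from 8.71 ± 0.15 (SD, n = 2) to 7.29 ± 0.14 (SD, n = 4), a log2 fold change of -1.42 ± 0.15 (SE, interval -1.76 to -1.08), which is 2.68-fold lower (adjusted p = 0.00116 in limma). The groups were apart, and the call held under all 15 alternatives run. The other two probes, at 46.6 to 60.5 raw units, were detected on no array of either genotype.

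Foxr1, with 2 probes, dropped to the detection limit. Its brighter probe read 144.5 and 114.1 raw units in wildtype and 62.1, 46.1, 53.2 and 63.1 in the double knockout, where only array 5 detected it. Log2 levels were 6.36 ± 0.24 (SD, n = 2) and 4.53 ± 0.25 (SD, n = 4), the second below the lowest detected signals of 4.72 to 4.76. The log2 fold change of -1.83 ± 0.19 (SE, adjusted p = 0.00114 in limma) is therefore partly against background, and it was -1.08 without background correction, -1.02 with an offset of 50 and -1.10 in the authors' values. The call held in each. The second probe read 52.9 to 63.5 units, was detected on double-knockout array 3 alone, and was not tested.

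Bnc1 had the smallest fall that passed. It read 700.9 and 494.9 raw units in wildtype and 271.2, 291.6, 311.5 and 323 in the double knockout. The 4 double-knockout arrays were close together, while the wildtype arrays differed more from each other. Log2 levels were 8.95 ± 0.24 (SD, n = 2) and 8.11 ± 0.09 (SD, n = 4), a log2 fold change of -0.85 ± 0.15 (SE, interval -1.19 to -0.50), or 1.8-fold lower (adjusted p = 0.0133 in limma). Without wildtype array 2, the higher of the wildtype pair, the change was -0.67 and the call ended (adjusted p = 0.159). Taf4b could not be assessed: its 2 probes read 42.6 to 54.7 units and 45.5 to 48.2 units, below the array medians, and were detected on no array.

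**Figure D3:**
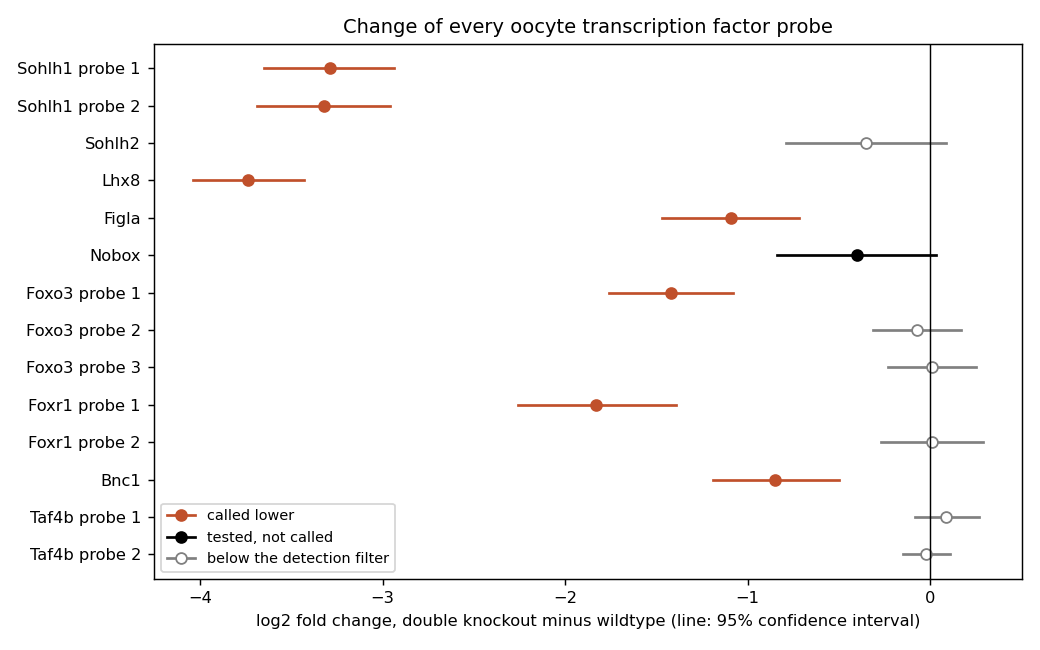
Log2 fold change, double knockout minus wildtype, of all 14 probes (points) with 95% confidence intervals (lines). The 7 probes called lower run from -3.74 for Lhx8 to -0.85 for Bnc1, Nobox at -0.40 is tested and not called, and the 6 open points are probes below the detection filter, which cluster near 0 except Sohlh2 at -0.35.

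**Figure D4:**
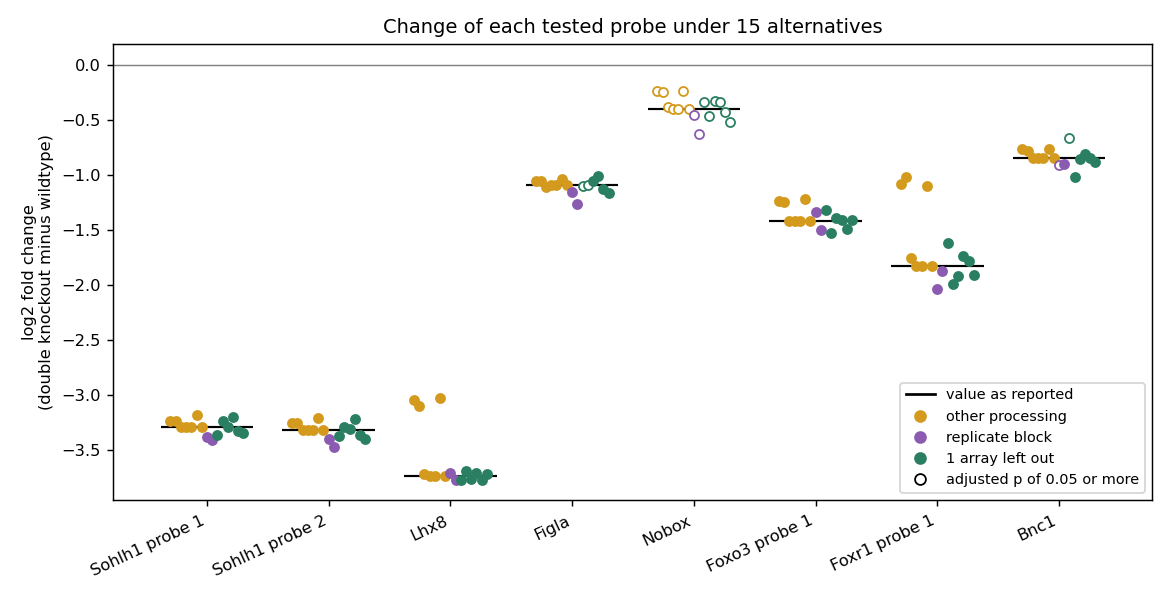
Log2 fold change of the 8 tested probes under 15 alternatives (points, coloured by kind, open where the adjusted p was 0.05 or more) beside the value reported (black line). All values lie below 0, and open points appear for Nobox throughout, for Figla without either wildtype array, and for Bnc1 without wildtype array 2 and with a block by title number.

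Among the 4 double-knockout arrays the same ones were often highest or lowest in the network's tested probes, 2 of which are of Sohlh1. Lhx8 and Foxo3 were highest on array 3 instead, and Nobox and Foxo3 lowest on array 1. Array 5 was the highest of the 4 in 6 of 8 tested probes and array 2 the lowest in 6, whereas over all 21981 tested probes array 5 was highest in 27.2% and array 2 lowest in 24.9%. Over the 795 probes called lower, array 5 was highest in 28.9% and array 2 lowest in 31.8%. The probes share the RNA of the same 4 samples, so this is a description and was not tested. The spread itself was ordinary, with standard deviations of 0.09 to 0.28 over the 4 arrays for the 8 probes against a median of 0.19 over all tested probes.

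Markers of germ cells in general had a median log2 fold change of -0.40, against -1.42 for the network with the targeted Sohlh1 in it, a difference that was not tested. Of 11 listed markers 7 were tested, 1 fell (3.58% of all genes did) and none rose; at an unadjusted p under 0.05, 2 were lower and 0 higher. All 7 had a negative log2 fold change. The marker that fell was Tdrd1, a tudor-domain gene of the germ line, at -1.41 ± 0.19 (SE, adjusted p = 0.00405 in limma). Rnf17 (-0.69 ± 0.18, adjusted p = 0.0513) and Gtsf1 (-0.77 ± 0.36, adjusted p = 0.232) did not pass. Their summed normalized intensity ran from 2650 to 3540 in wildtype and from 2250 to 2880 in the double knockout, where the groups overlapped, while the mean of their log2 levels was 7.56 and 7.87 in wildtype and 6.96 to 7.27 in the double knockout, where they did not. Within the double knockout this sum was lowest on array 2 (2250) and highest on array 3 (2880). Dazl, a germ cell RNA-binding protein, gave a log2 fold change of -0.27 ± 0.22 (SE, adjusted p = 0.491 in limma) and Ddx4, a germ cell RNA helicase with a dim probe, -0.40 ± 0.21 (adjusted p = 0.278). Mael, Sycp1, Sycp3 and Hormad1 did not pass the detection filter. The part that germ cell number plays in the falls above was not tested.

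Most tested genes described as downstream of the network fell. Of 22 listed genes 15 were tested, 11 fell and none rose (0 at an unadjusted p under 0.05), with a median log2 fold change of -2.29, whereas 3.58% of all genes were called lower and 4.79% higher. The largest falls were Ccno, a cyclin family member (-4.44 ± 0.33 SE), Nlrp14, an NLR gene of oocytes (-3.22 ± 0.53), Gdf9, an oocyte growth factor (-2.73 ± 0.32), and Zp3, a protein of the zona pellucida (-2.73 ± 0.53). Ccno and Uchl1 were placed on the list with their falls already known, and without them, a comparison added after the values were seen, 9 of 13 fell with a median of -2.09. The whole list was chosen with earlier results of these data known. Leaving out these 2 genes does not remove that selection, and both counts are descriptions. Mos, which fell (-2.09 ± 0.17 SE), and Rfpl4, which did not pass, were detected on both wildtype arrays and on 1 double-knockout array. These genes passed the detection filter only through the wildtype arrays, which favours a fall. The list's count of falls was 6 when wildtype array 2 or wildtype array 3 was left out, where 0.519% and 1.08% of all probes were called lower. It was 7 of 20 with no detection filter (1.23% of all probes) and 6 with a trended, robust variance (5.01%).

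Other transcription regulators were mixed. Among 25 further regulators of the germ line and oocyte, 8 were tested and 2 fell (3.58% of all genes did), Sall4 (-2.35 ± 0.28 SE) and Pou5f1 (-2.08 ± 0.19), both factors of pluripotent and germ cells, and the median was -0.02. Both counts held under every alternative run. Of these 8 regulators, 2 were lower and 2 higher at an unadjusted p under 0.05. At that p in limma, 1400 of 12163 genes were lower and 1807 higher. Of the paralogs of the network, 10 of 17 were tested and limma called 0 in either direction (3 lower and 1 higher at an unadjusted p under 0.05), with a median of -0.09. The brightest of them were Tcf4, a widely expressed helix-loop-helix partner, at 0.04 ± 0.15, and Foxo1, a forkhead paralog of Foxo3, at -0.41 ± 0.14 (adjusted p = 0.109 in limma). In the paralog list 1 gene fell with a block by title number and 1 without double-knockout array 1.

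Among 17 tested genes described as Foxo3 targets, 3 rose (8 at an unadjusted p under 0.05), and 4.79% of all genes were called higher. At that unadjusted p in limma, 1807 of 12163 genes were higher and 1400 lower. None was called lower (2 at an unadjusted p under 0.05), except that 1 was with no filter, with a trended, robust variance and without double-knockout array 1. The median log2 fold change was 0.32. Those that rose were Bcl6, a transcriptional repressor (1.06 ± 0.21 SE, adjusted p = 0.021 in limma), Klf2, a transcription factor abundant in endothelium (0.83 ± 0.16, adjusted p = 0.0159), and Gadd45b, a stress-response gene (0.53 ± 0.13, adjusted p = 0.0426). Rises numbered 0 when wildtype array 2 was left out and 1 when array 3 was, and 5 with 75th percentile scaling and with a trended, robust variance. 

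Marker lists of other cell types did not all differ in the same direction. Among all genes 4.79% were called higher and 3.58% lower. At an unadjusted p under 0.05 in limma, 1807 of 12163 genes were higher and 1400 lower. The summed intensity of 11 tested pregranulosa markers was 5820 to 8210 in wildtype and 9490 to 11000 in the double knockout, with 1 called higher, Amhr2 (4 higher at an unadjusted p under 0.05). The sum leans on its brightest genes, Amhr2 (log2 fold change 0.63 ± 0.16 SE) and Irx3 (0.65 ± 0.19, adjusted p = 0.0691 in limma). The median log2 fold change of the 11 markers was 0.26. Foxl2, which defines pregranulosa cells, was detected on 1 wildtype and 2 double-knockout arrays. The sum of 5 endothelial markers was 2570 to 3000 and 3140 to 3930, with 0 called by limma (3 higher at an unadjusted p under 0.05). In 4 tested erythroid markers the sums were 23600 to 25300 and 26000 to 30400, with a median log2 fold change of 1.30 and 1 called higher, Alas2 (2 higher at an unadjusted p under 0.05). The brightest of them, Hba-a1, changed by 0.09 ± 0.14 (SE). Slc4a1 had the largest change, 3.72 ± 1.03 (SE, adjusted p = 0.0628 in limma), and varied widely within the double knockout (SD 1.99, n = 4). The sums of 6 stroma markers (21400 on both wildtype arrays and 18700 to 22700) and of 4 leukocyte markers (356 to 434 and 316 to 816) overlapped, and limma called 0 of either (1 stroma marker lower and 1 higher, and no leukocyte marker, at an unadjusted p under 0.05). The sum of 5 tested markers of oviduct and mesonephric epithelium was 1620 to 1870 in wildtype and 948 to 1560 in the double knockout, with 1 called lower, Cdh16. The part of these cell types in the changes above was not tested.

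**Figure D5:**
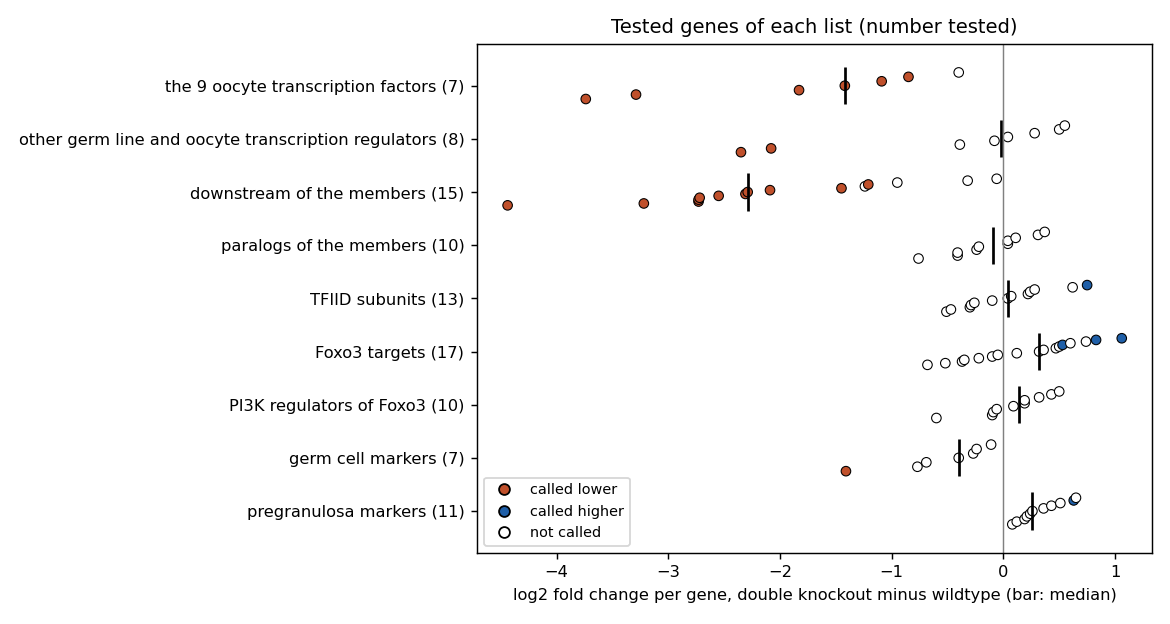
Log2 fold change of each tested gene (points, coloured by call) in the network, related gene lists and cell markers, with the number tested in brackets and the median as a bar. Falls dominate in the network (median -1.42) and in the downstream list (-2.29), while the other lists drawn have medians between -0.40 and 0.32.

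Several genes followed the network's arrays closely, as a description over 6 arrays that mostly reflects the difference of genotype. The genes with log2 levels most like those of Sohlh1 by Pearson correlation were 1700067K01Rik (0.998), Uchl1, a deubiquitinase (0.998), Lhx8 (0.997) and Th, tyrosine hydroxylase (0.997). Those most like Lhx8 were Sohlh1 (0.997), Mcrip2 (0.997), Tmc5 (0.996) and Atp4a, a subunit of the gastric proton pump (0.996). Those most like Figla were Zbtb32 (0.996) and Zbtb18 (0.993), both zinc finger transcription factors, Med1, a Mediator subunit (0.992), and Reln, the extracellular protein reelin (0.991). A correlation over 0.95 was reached by 213 of 12162 other genes with Sohlh1, 221 with Lhx8 and 176 with Figla.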

How the data were processed

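The deposited table gives a raw signal intensity per probe and array, exported from GenomeStudio per the submitters' processing notes, neither background-subtracted nor normalized as the values show. The column deposited beside each signal is a detection score equal to 1 minus the detection p, and p was taken as its complement. In the authors' series matrix the deposited values are quantile-normalized intensity on a linear scale, without background subtraction or centring as the values show, in the same direction and with column medians of 59.5 or 59.6.

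For the values used here, limma's nec (normexp with the background inferred from detection p-values, offset 16; limma 3.58.1, R 4.3.3) was followed by quantile normalization and log2. Probes detected at p under 0.05 on at least 2 of 6 arrays (21981 of 45281) were fitted with lmFit and eBayes with no covariate, with Benjamini-Hochberg adjustment at 0.05 over all of them. Intervals are 95%. The procedure was tested on simulated data. Probe names came from the platform annotation (34885 with 1 symbol, 18 with several, 10378 unnamed here); a gene in a list is its brightest tested probe. Summed intensities are linear normalized values. The members, lists and tests were chosen with earlier results of these data known. Named genes are all members, up to 4 called genes per list with the largest change or otherwise the 2 brightest, and the 4 genes most like Sohlh1, Lhx8 and Figla over the arrays. Tdrd1, Rnf17, Gtsf1, Amhr2, Alas2, Hba-a1, Slc4a1, Cdh16, Dazl, Ddx4, Mael, Sycp1, Sycp3, Hormad1, Uchl1 and Foxl2 were added after their values were seen. Mos, Rfpl4 and Irx3 were also added in this way.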

Additional observations from a re-analysis of the deposited data

How the results depend on the processing

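The direction of all 8 tested member probes was kept under all 15 alternatives (no background correction, offset 50, 75th percentile scaling, no filter, a detection p of 0.01, the authors' values, trended robust variance, 2 replicate blocks and each of 6 arrays left out), with log2 fold changes of -3.41 to -3.18 and -3.47 to -3.21 for the Sohlh1 probes, -3.77 to -3.03 for Lhx8, -1.27 to -1.01 for Figla, -1.53 to -1.22 for Foxo3, -2.04 to -1.02 for Foxr1, -1.02 to -0.67 for Bnc1 and -0.63 to -0.24 for Nobox. The number of member probes called lower was 5 to 7 and called higher 0 to 0 when 1 array was left out. Over all probes, 111 to 688 were then called lower and 113 to 755 higher, against 795 and 803 with all arrays. The replicate numbers of titles and of descriptions differ, and whether either pairs the arrays could not be decided. Correlations of same-numbered deviations were -0.10 and -0.03 for titles, and -0.11 and 0.10 for descriptions. With 2 wildtype arrays the deviations of 1 are the opposite of the other's, so these values cannot exclude a pairing. With a replicate block by title number 449 probes were called lower, 432 higher and 6 member probes lower, with Bnc1 at adjusted p = 0.051 and 0 of the 17 Foxo3 targets called higher. The block by description number gave 7 member probes lower. The cause of these differences was not tested. Dim signal limits Sohlh2, Taf4b, Nobox and the lower end of Foxr1.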

Other observations

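The TFIID list holds subunits of the complex that Taf4b belongs to, and the PI3K list holds genes of the pathway around Foxo3. Of 16 TFIID subunits with a probe 13 were tested, and 1, Taf9b, was called higher, where 4.79% of all genes were (log2 fold change 0.75 ± 0.19 SE, adjusted p = 0.0471 in limma), with a list median of 0.04. That count was 0 without either wildtype array, without double-knockout arrays 1, 3 or 5, with no filter and with either replicate block, and 2 without double-knockout array 2 and with 75th percentile scaling. With the processing used here 0 TFIID subunits were called lower, and 1 was with a trended, robust variance. Of 10 tested genes of the PI3K list, limma called 0 in either direction (1 lower and 1 higher at an unadjusted p under 0.05), with a median of 0.14. Rps6, a ribosomal protein, gave 0.19 ± 0.14 and Pik3r1, a regulatory subunit of PI3K, -0.09 ± 0.20. In that list 1 gene was called lower with no background correction, with an offset of 50, in the authors' values, with trended robust variance and with the mean of a gene's probes. Among the 25 further germ line regulators, 16 with a probe did not pass the detection filter, among them all 5 listed Obox genes, Stra8, Nanog and Tbpl2 (named after this was seen).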
